A study of Mus musculus with 12 samples.

Results

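Transcripts of the proteasome genes were measured in G1E-ER4 cells, a clonal mouse erythroid line that lacks the transcription factor GATA1 and carries a form of it that estradiol switches on. The genes were taken by name: each symbol starts with Psma, Psmb, Psmc, Psmd, Psme, Psmf or Psmg followed by a number, and 5 names that end in -ps were left out. This gave 50 of 55487 rows. They comprise 7 alpha ring genes, 7 beta ring genes, 9 base genes, 8 lid genes, 4 immune and thymus beta genes, 6 genes of activators and an inhibitor, 7 assembly factors and the germline alpha gene Psma8. Psmc3ip also has such a symbol, but its protein is a cofactor of recombination and not a part of the proteasome, so it is described on its own. A mean of at least 1 TPM (transcripts of a gene per 1000000 transcripts, a level corrected for length) over the 11 libraries used was reached by 46 of the 50, and these were tested.

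Every culture, controls included, was maintained with erythropoietin and Kit ligand, received siRNA by nucleofection in 2 transfections 24 h apart, and was given 100 nM β-estradiol at the second transfection. The siRNA was a control (siControl) or was directed against ZIP10 (siZIP10), a zinc importer whose gene is Slc39a10. Some cultures of each siRNA also received 25 µM DTPA, an extracellular zinc chelator, together with the estradiol, and harvest followed at 24 h. Libraries were used for siControl (n = 3), siControl with DTPA (n = 2 used of 3), siZIP10 (n = 3) and siZIP10 with DTPA (n = 3), from 1 line and labelled as biological replicates.

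The proteasome degrades proteins that carry ubiquitin chains. Its barrel-shaped core has outer rings of alpha subunits, which gate the entry, and inner rings of beta subunits, of which Psmb5, Psmb6 and Psmb7 carry the proteolytic sites. A regulatory cap sits on the barrel: its base holds a ring of ATPases that unfold the substrate, and its lid removes the ubiquitin chain. Immune cells and cells exposed to interferon exchange the catalytic subunits for Psmb8, Psmb9 and Psmb10. Maturing erythroid cells are known to rely on ubiquitin-dependent degradation as they clear much of their protein content.

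The libraries held 19.7 to 24.7 M reads, as recovered from the TPM values, and 15225 to 16147 genes above 0. The library deposited as siControl with DTPA replicate 3 was identical to siZIP10 replicate 1 in all 55487 rows and was left out, so the DTPA group rests on 2 libraries. Without siZIP10 replicate 1 as well, 32 of the 46 proteasome genes were called with siZIP10, against 35 with it. Slc39a10 was at 2.62 ± 0.27 TPM in siControl (SD, n = 3) and 0.627 ± 0.18 TPM in siZIP10 (SD, n = 3), and at 21.1 ± 1.19 TPM with DTPA (SD, n = 2) and 5.10 ± 0.23 TPM with both (SD, n = 3). Mt2, a metallothionein that follows cellular zinc, was at 2039 ± 72.4 TPM in siControl (SD, n = 3), 17.1 ± 2.98 TPM with DTPA (SD, n = 2), 2413 ± 72.8 TPM with siZIP10 (SD, n = 3) and 22.1 ± 3.81 TPM with both (SD, n = 3). The double treatment also differed in makeup. Mitochondrial-genome transcripts took 9.01 to 9.30% of TPM there and 6.13 to 7.49% in the other libraries, and the 7 of 8 erythroid markers matched by name summed to 8042 to 8150 TPM there and to 15260 to 17360 TPM elsewhere. The 5 megakaryocyte markers summed to 55.5 to 57.1 TPM with both treatments and 14.1 to 23.0 TPM elsewhere. Among the 5 mast cell and basophil markers the sum was 20.7 to 22.6 TPM against 0.832 to 2.49 TPM, made up by Hdc, with Cpa3, Mcpt8, Ms4a2 and Fcer1a at or near 0. The 6 myeloid markers, with Mpo, Elane and Itgam at or near 0, summed to 5.86 to 6.80 TPM against 2.33 to 5.16 TPM. Lymphoid markers, of which Cd3e, Ms4a1 and Nkg7 were at or near 0, summed to 2.38 to 3.15 TPM against 0.296 to 1.61 TPM. In bulk RNA, fewer cells of a type and less RNA per cell cannot be told apart, and the part of these shifts in the results below was not tested.

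Each treatment alone was accompanied by a small fall across the proteasome genes, and the combination by a larger one. With DTPA alone 31 of 46 genes fell and 0 rose (limma, adjusted p under 0.05), where 18.8% of all 11379 genes tested fell and 9.98% rose (28.8% in either direction). The count of risers was 0 at an unadjusted p under 0.05 as well. Psmd4 and Psme4 were called higher by voom on the recovered reads and with median-of-ratios scaling. With siZIP10 alone 33 fell and 2 rose (Psme4 and Psmb10), against 17.5% and 13.1% of all genes, or 30.6% in either direction. With both treatments 42 fell and 1 rose, against 39.9% and 26.7% of all genes, or 66.6% in either direction. The median log2 change of the 46 genes on the log2(TPM + 1) scale was -0.17 with DTPA, -0.16 with siZIP10 and -0.53 with both, beside -0.039, -0.015 and -0.075 for all genes tested. These 3 comparisons share the siControl libraries. The balance of calls over all genes depended on scaling. The share of calls that were higher was 34.7% with DTPA, 42.9% with siZIP10 and 40.1% with both as deposited, and 51.1%, 54.3% and 50.2% after quantile normalization, under which 23, 30 and 41 proteasome genes fell and 1, 2 and 2 rose.

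The 31 constitutive genes of the rings, base and lid together made 7280, 7103 and 7145 TPM in siControl, 6393 and 6408 TPM with DTPA alone, 6605, 6435 and 6459 TPM with siZIP10 alone, and 4890, 4768 and 4925 TPM with both. Control libraries were highest and the double-treatment libraries lowest, and those of the single treatments lay between them without touching either. The means were 89.2% of control with DTPA, 90.6% with siZIP10 and 67.7% with both. As a share of all TPM, the mean went from 0.718% in siControl to 0.486% with both. All 31 of these genes fell with both treatments, to between 53.5% (Psmc5) and 83.8% (Psmc6) of control, while 25 fell with DTPA alone and 27 with siZIP10 alone.

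**Figure D1:**
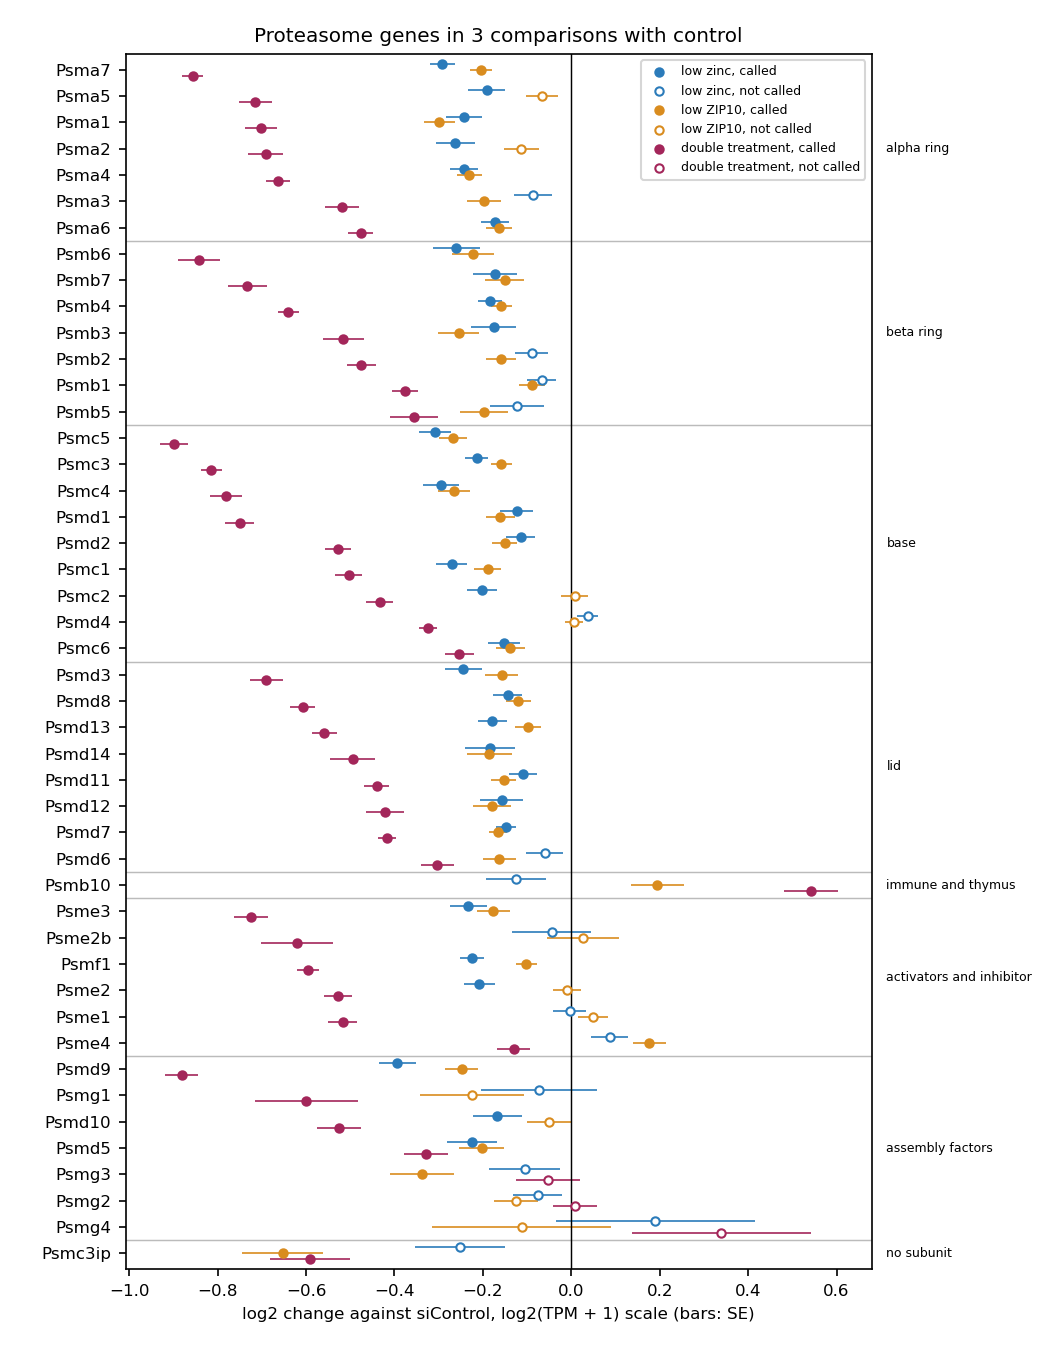
Log2 change against siControl on the log2(TPM + 1) scale (x axis) for the 46 tested genes (y axis, by class) with DTPA alone, siZIP10 alone and both, as points with bars for the standard error, filled where the limma adjusted p was under 0.05. With both treatments 42 genes lie to the left of 0 as filled points, and Psmb10 is the filled point to the right.

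**Figure D2:**
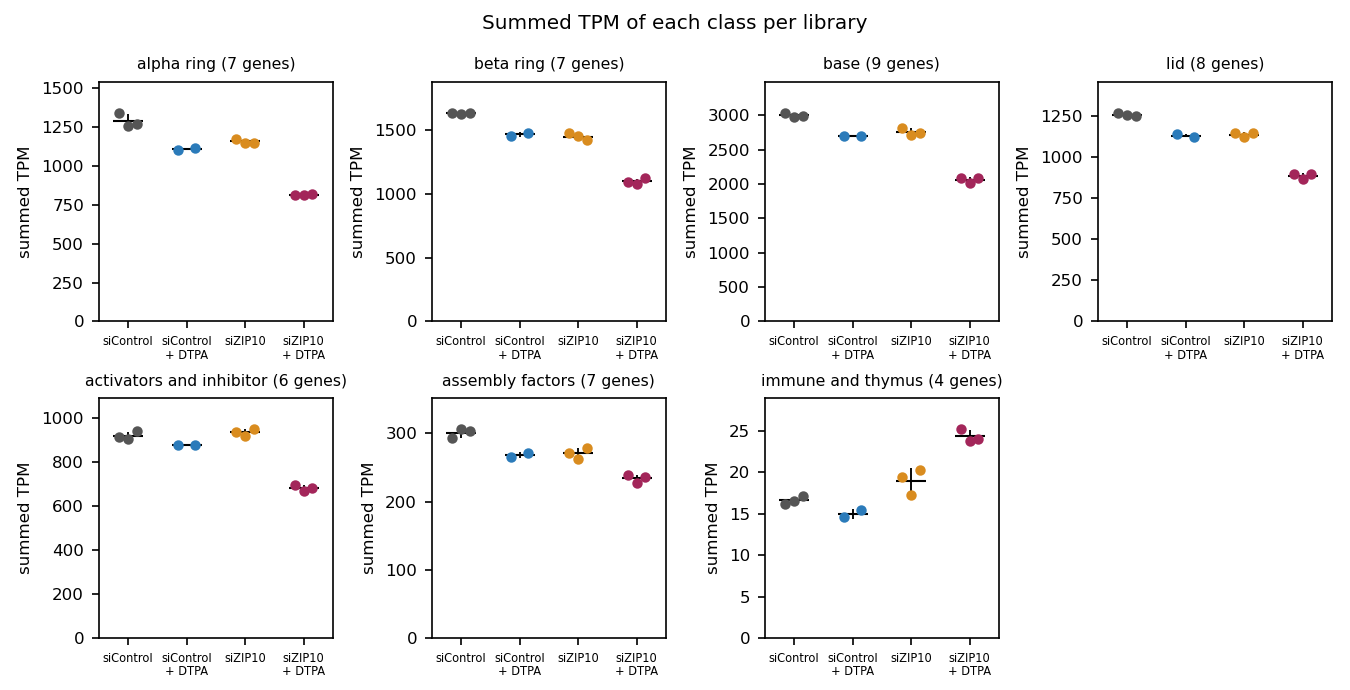
Summed TPM of each class (y axis, linear from 0) in each library (points) of the 4 groups (x axis), with a line at the mean and a bar for the SD. The alpha ring, beta ring, base, lid, activator and assembly sums are lowest with both treatments, and the immune and thymus sum, nearly all of it Psmb10, is highest there.

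Promoter sequences are shown for the 4 genes with the largest falls under both treatments (Psmc5, Psmd9, Psma7 and Psmb6) and for the 1 gene that rose (Psmb10), since these mark the ends of the response. They are RefSeq sequences of build GRCm38.p6, 5′ to 3′ on the gene's strand, and lie within the 250 bases before the RefSeq start. Bases that GENCODE places in a transcript of the gene, or in the untranslated region of a neighbour that starts the other way (Ftsj3 for Psmc5 and Ss18l1 for Psma7), were left out, which leaves 74 bases for Psmc5, 44 for Psma7 and 198 for Psmb10. Capitals mark matches on either strand to TGACNNNGC, the core of the antioxidant response element that Nfe2l1 and Nfe2l2 bind, or to TGCACNC or TGCGCNC, the core of the metal response element bound by the zinc-sensing factor MTF1. The windows are Psmc5 at chr11:106256080-106256153, plus strand, Psmd9 at chr5:123227940-123228189, plus strand, Psma7 at chr2:180042465-180042508, minus strand, Psmb6 at chr11:70525107-70525356, plus strand, and Psmb10 at chr8:105938445-105938642, minus strand.
Psmc5: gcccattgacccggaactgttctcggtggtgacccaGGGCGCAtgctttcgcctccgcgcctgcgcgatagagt
Psmd9: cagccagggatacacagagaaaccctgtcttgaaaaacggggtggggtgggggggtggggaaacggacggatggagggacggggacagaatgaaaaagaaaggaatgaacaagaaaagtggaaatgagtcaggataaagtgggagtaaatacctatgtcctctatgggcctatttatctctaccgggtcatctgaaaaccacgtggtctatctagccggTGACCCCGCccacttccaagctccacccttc
Psma7: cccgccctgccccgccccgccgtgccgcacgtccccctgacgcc
Psmb6: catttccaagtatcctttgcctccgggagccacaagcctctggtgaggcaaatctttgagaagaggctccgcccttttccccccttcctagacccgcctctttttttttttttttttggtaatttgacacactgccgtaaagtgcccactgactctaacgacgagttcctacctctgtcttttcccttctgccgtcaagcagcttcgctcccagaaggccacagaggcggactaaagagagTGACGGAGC
Psmb10: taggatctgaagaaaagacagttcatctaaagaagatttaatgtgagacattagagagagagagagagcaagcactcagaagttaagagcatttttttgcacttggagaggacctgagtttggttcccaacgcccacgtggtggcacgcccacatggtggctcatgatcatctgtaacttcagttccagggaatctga
Psmc5 shows 1 metal response core, while Psmd9 and Psmb6 each show 1 antioxidant response core that starts 31 and 9 bases before the start. Psma7 and Psmb10 show neither in the stretch printed. The 150 bases before the RefSeq start of Psma7 do hold a metal response core, but not within the 44 bases printed. The Psmd9 window lies in introns of a noncoding transcript of Psmd9 and of Gm26745, and the Psmb10 window in an intron of the antisense gene Gm16156.

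The 5 motifs named here were counted on both strands in the 300-base RefSeq windows (250 before to 50 after the start) of the 42 genes with an entry, and Psma8, Psmb1, Psmb2, Psmb7, Psmc3, Psmd3, Psmd7 and Psmg2 had no match. The antioxidant response core was in 6 of 42 windows (14.3%), beside 14% of 27025 RefSeq genes and 17.1% of the 7725 tested genes with a window. Those 6 were Psmb5, Psmb6, Psmc6, Psmd9, Psmd12 and Psme4. Their log2 changes with both ranged from -0.88 in Psmd9 to -0.13 in Psme4. The metal response core was in 17 windows (40.5%), close to the 40.8% of tested genes. CCGGAAG, a core that ETS factors bind, was in 15 windows (35.7%), beside 24.6% of tested genes and 9.93% of all. CCAAT was in 15 windows (35.7%), beside 44.6% of tested genes. The interferon response element core, GAAA followed after 2 bases by GAAA, was in 5 windows (11.9%), those of Psmb3, Psmd4, Psmd9, Psme1 and Psmg4, beside 3.34% of tested genes. That value depended on the window. In the 150 bases before the start it was in 1 of 42 (2.38%, Psmd4), beside 1.5% of tested genes. CCGGAAG was in 31% there, beside 16.1%. A match is only a description of these letters in the window searched.

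The alpha ring fell as a whole with both treatments. All 7 genes were called, with a median log2 change of -0.69, while 6 fell with DTPA and 5 with siZIP10. Psma7, alpha 4 of the ring (chr2:180036374-180042433 in GENCODE mouse release 21, build mm10), was at 126, 124 and 125 TPM in siControl, 104 and 99.96 TPM with DTPA alone, 108, 108 and 109.8 TPM with siZIP10 alone, and 68.9, 67.4 and 69.3 TPM with both. No group overlapped another, in the order siControl, siZIP10, DTPA and both. Its log2 change was -0.86 (SE 0.025, limma adjusted p = 3.21e-10) with both, to 54.9% of control. The change was -0.29 with DTPA (limma adjusted p = 3.39e-05) and -0.20 with siZIP10 (limma adjusted p = 0.000163).

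Psma5 had the highest mean TPM of the ring and was called with 1 of the single treatments. Its values were 374, 341 and 354 TPM in the siControl libraries, 306 and 317 TPM after DTPA, 354, 333 and 334 TPM after siZIP10, and 219, 217 and 213 TPM after both. The siZIP10 libraries overlapped the controls, the DTPA libraries lay below both, and the double-treated ones lay far below. The log2 change was -0.71 (SE 0.037, limma adjusted p = 2.65e-08) with both, against -0.19 with DTPA (limma adjusted p = 0.0055) and -0.066 with siZIP10 (limma adjusted p = 0.209, not called). Without siControl with DTPA replicate 1 the DTPA value was -0.17 and no longer called (limma adjusted p = 0.0569). Psma5 exons overlap 1700010K24Rik on the other strand, and since the counting's strand setting is not given in the sources used here, its reads could hold some of that gene's.

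Psma2 was at 218, 203 and 196 TPM in siControl, 169 and 174 TPM with DTPA alone, 189.6, 190 and 190.2 TPM with siZIP10 alone, and 123, 126 and 132 TPM with both. The DTPA libraries lay below the siZIP10 libraries, which lay below the controls, with log2 changes of -0.26 (limma adjusted p = 0.00138) and -0.11 (limma adjusted p = 0.0554, not called). With both treatments the change was -0.69 (SE 0.04, limma adjusted p = 6.53e-08). Psma1 had the opposite order, with 122, 113 and 116 TPM in the siControl libraries, 98.1 and 99.2 TPM after DTPA, 93.5, 95.1 and 96 TPM after siZIP10, and 70.6, 69.4 and 74.6 TPM after both. Its siZIP10 libraries lay below its DTPA libraries, at log2 changes of -0.30 and -0.24, and the change with both was -0.70. Psma4, whose exons overlap AY074887 on the other strand, was at 154, 149.8 and 158 TPM in siControl, 129 and 131 TPM with DTPA alone, 134, 129.7 and 129 TPM with siZIP10 alone, and 98.2, 97.2 and 95 TPM with both. Here the single treatments overlapped each other, at -0.24 and -0.23, and the change with both was -0.66 (limma adjusted p = 4.92e-09). Psma3 and Psma6 had the smallest falls of the ring with both, -0.52 and -0.48, and Psma3 was the ring's 1 gene not called with DTPA (-0.087, limma adjusted p = 0.164).

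The beta ring fell with both treatments in all 7 genes, with 4 called lower with DTPA and 7 with siZIP10. Its 3 catalytic genes are given first. Psmb6, the caspase-like site (chr11:70525367-70527858), was at 210.4, 228 and 234 TPM in siControl, 178 and 196 TPM with DTPA alone, 191, 195 and 189 TPM with siZIP10 alone, and 127, 119 and 128 TPM with both. The single treatments overlapped each other below the controls, and the double-treated libraries were lower still, at a log2 change of -0.84 (SE 0.047, limma adjusted p = 5.19e-08). Psmb7, the trypsin-like site, was at 158, 151 and 149 TPM in the siControl libraries, 133 and 137 TPM after DTPA, 143, 129.7 and 138 TPM after siZIP10, and 94.7, 86.3 and 92.7 TPM after both. It fell to 59.9% of control with both, at -0.73 (SE 0.044, limma adjusted p = 9.84e-08), and its exons overlap Nek6 on the other strand. Psmb5, the chymotrypsin-like site, was at 189, 189.8 and 179.6 TPM in siControl, 163 and 179 TPM with DTPA alone, 170.1, 164 and 152 TPM with siZIP10 alone, and 139, 142 and 155 TPM with both. With both treatments it was at 78% of control, -0.36 (SE 0.055, limma adjusted p = 0.000164), and its highest double-treated library reached into the siZIP10 range. Psmb5 shares exon bases with the microRNA gene Mir686 on the same strand.

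Of the 5 single-treatment calls of Psmb5, Psmb6 and Psmb7, that of Psmb6 with siZIP10 (-0.22, limma adjusted p = 0.00516) held without any 1 library, and the other 4 did not. Psmb6 changed by -0.26 with DTPA (limma adjusted p = 0.00397), and by -0.19 (limma adjusted p = 0.0515) without siControl with DTPA replicate 1. Psmb7 changed by -0.17 with DTPA (limma adjusted p = 0.0244), and its call was lost without siControl replicate 1 or either DTPA library (-0.20 to -0.15, limma adjusted p 0.068 to 0.144). With siZIP10 it changed by -0.15 (limma adjusted p = 0.0265), and that call was lost without siControl replicate 1 or 2 or siZIP10 replicate 2 or 3 (-0.16 to -0.11, limma adjusted p 0.0518 to 0.0925). Psmb5 changed by -0.20 with siZIP10 (limma adjusted p = 0.0201), lost without siControl replicate 1 or 2 or siZIP10 replicate 3 (-0.19 to -0.15, limma adjusted p 0.0582 to 0.0736), and by -0.12 with DTPA (limma adjusted p = 0.167, not called).

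Among the structural beta genes, Psmb4 had the highest mean TPM, with 467, 476 and 483 TPM in siControl, 421 and 415 TPM with DTPA alone, 429, 436 and 413 TPM with siZIP10 alone, and 306, 304 and 305 TPM with both. Its double-treated libraries sat within 2 TPM of each other and well below the rest, at -0.64 (SE 0.024, limma adjusted p = 2.48e-09). Psmb3 was at 93.3, 96.7 and 94 TPM in the siControl libraries, 88.4 and 79.2 TPM after DTPA, 81.2, 80.2 and 76.3 TPM after siZIP10, and 63.2, 65.7 and 68.9 TPM after both. It fell by 0.52 on the log2 scale with both, and its fall with DTPA (-0.18, limma adjusted p = 0.0265) was not called without siControl replicate 2 or 3 or siControl with DTPA replicate 2 (-0.18 to -0.097, limma adjusted p 0.0538 to 0.259). The DTPA call of Psmb3 was also lost after median-of-ratios scaling and after quantile normalization. Psmb1 and Psmb2 fell by 0.38 and 0.47 with both and were not called with DTPA.

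**Figure D3:**
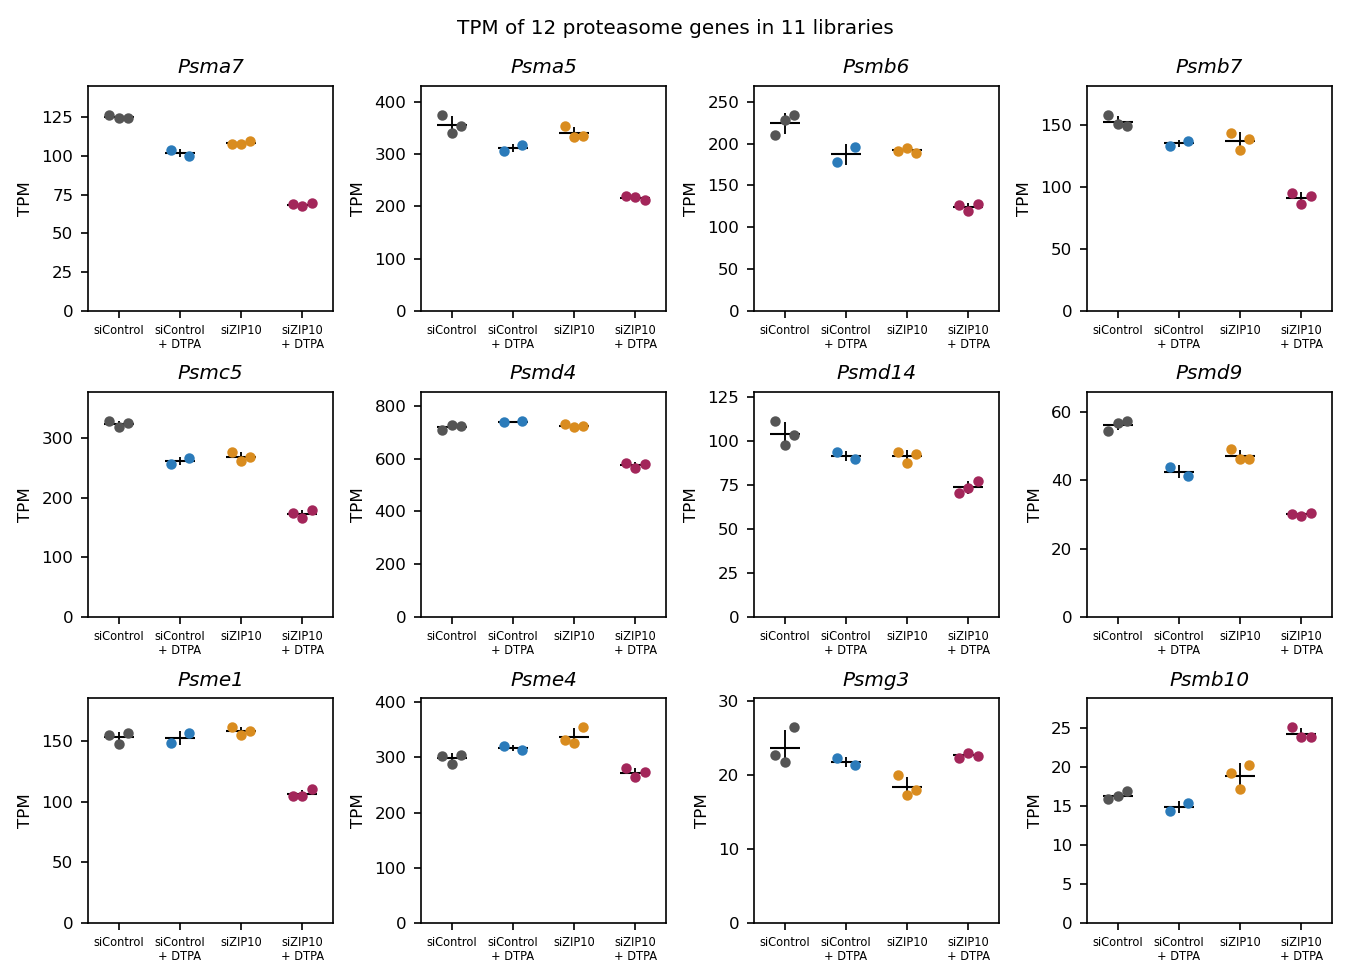
TPM (y axis, linear from 0) of 12 proteasome genes in each of the 11 libraries (points) of the 4 groups (x axis), with a line at the mean and a bar for the SD. Psma7, Psmb6, Psmc5 and Psmd9 step down from control to the single treatments to both, Psmd4 and Psme1 are lower only with both, Psmg3 is lowest with siZIP10, and Psmb10 is highest with both.

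The base, which holds the ATPase ring, contained the largest fall of all on the log2(TPM + 1) scale. Psmc5, an ATPase (chr11:106256154-106263120), was at 328, 318 and 325 TPM in siControl, 257 and 266 TPM with DTPA alone, 277, 262 and 268 TPM with siZIP10 alone, and 174, 167 and 179.7 TPM with both. The single treatments overlapped each other at 80.7% and 83.1% of control, and both treatments together gave 53.5%, a log2 change of -0.90 (SE 0.032, limma adjusted p = 1.65e-09). Psmc3 and Psmc4 were next among the ATPases. Psmc3 was at 397, 394 and 405 TPM in the siControl libraries, 344 and 343 TPM after DTPA, 365, 356 and 350.5 TPM after siZIP10, and 231, 224 and 225 TPM after both. Its groups did not overlap, and the change was -0.21 with DTPA, -0.16 with siZIP10 and -0.81 (SE 0.023, limma adjusted p = 2.73e-10) with both. The exons of Psmc3 overlap Slc39a13, a zinc transporter gene on the other strand, so part of its reads may be from that gene.

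Psmc4 was at 264, 262 and 266 TPM in siControl, 224 and 206 TPM with DTPA alone, 226, 216 and 216 TPM with siZIP10 alone, and 152, 148 and 159 TPM with both. It fell in each comparison with control, by 0.29 with DTPA, 0.26 with siZIP10 and 0.78 with both on the log2 scale. Psmc1 was at 351, 335 and 336 TPM in the siControl libraries, 282 and 282 TPM after DTPA, 309.7, 294 and 292 TPM after siZIP10, and 243, 232 and 245 TPM after both. It fell by 0.27 with DTPA, close to Psmc4, but with both it was at -0.50 (limma adjusted p = 1.06e-07). Psmc6 fell least of the constitutive genes with both, at -0.25, and Psmc2 fell with DTPA (-0.20) and both (-0.43) but was at 0.0074 with siZIP10 (limma adjusted p = 0.891, not called). The ATPase ring ranged from 53.5% to 83.8% of control with both treatments.

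Of the base genes that are not ATPases, the scaffold gene Psmd1 was at 165, 154 and 155 TPM in siControl, 146 and 144 TPM with DTPA alone, 144, 136 and 144 TPM with siZIP10 alone, and 94.9, 91.9 and 93.8 TPM with both. The step from either single treatment to both was larger than the step from control to either, with log2 changes of -0.12 with DTPA, -0.16 with siZIP10 and -0.75 (SE 0.033, limma adjusted p = 7.52e-09) with both. Its DTPA call (limma adjusted p = 0.0286) was lost without siControl replicate 1 or either DTPA library (-0.14 to -0.093, limma adjusted p 0.0759 to 0.154). The DTPA call of Psmd1 was also lost after median-of-ratios scaling and after quantile normalization. Psmd1 exons overlap Htr2b on the other strand and Gm21972 on the same strand. Psmd4, a ubiquitin receptor and the member with the highest mean TPM, was at 710.2, 726 and 726 TPM in the siControl libraries, 737 and 742 TPM after DTPA, 729.7, 719 and 723 TPM after siZIP10, and 584, 564 and 579 TPM after both. Its DTPA libraries lay above the controls and its siZIP10 libraries overlapped them, with log2 changes of 0.037 and 0.0067 that were not called (limma adjusted p = 0.269 and 0.848), and the 3 double-treated libraries alone lay lower, at -0.32 (SE 0.021, limma adjusted p = 1.44e-07). The other scaffold gene, Psmd2, fell by 0.11, 0.15 and 0.53 in the same order.

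The lid fell in all 8 genes with siZIP10 and with both, and in 7 of 8 with DTPA. Psmd14, the zinc metalloprotease that removes ubiquitin chains, was at 111, 97.8 and 103 TPM in siControl, 93.5 and 89.4 TPM with DTPA alone, 93.8, 87.4 and 92.6 TPM with siZIP10 alone, and 70.1, 73.4 and 77 TPM with both. Both single treatments left it at about the same level (87.8% and 87.7% of control), and both together gave 70.6%, a log2 change of -0.49 (SE 0.051, limma adjusted p = 7.49e-06). Its DTPA call (-0.18, limma adjusted p = 0.035) was lost without siControl replicate 1 or 3 or either DTPA library (-0.22 to -0.14, limma adjusted p 0.068 to 0.199), and its siZIP10 call (-0.19, limma adjusted p = 0.0193) without siControl replicate 1 or siZIP10 replicate 2 (-0.14 and -0.16, limma adjusted p = 0.0643 and 0.0709). Its DTPA call was also lost after median-of-ratios scaling and after quantile normalization. Among lid genes the fall of Psmd14 with both was of middle size, between -0.69 for Psmd3 and -0.30 for Psmd6.

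Psmd3, a structural lid subunit whose exons overlap Gm12356 on the other strand, was at 86.7, 90.4 and 93.6 TPM in siControl, 76.7 and 75.3 TPM with DTPA alone, 83.6, 78.8 and 79.9 TPM with siZIP10 alone, and 56.9, 56.2 and 53.5 TPM with both. No groups overlapped, and the order was siControl, siZIP10, DTPA and both. Psmd8 had the highest mean TPM of the lid, with 269, 289.5 and 284 TPM in the siControl libraries, 254 and 254 TPM after DTPA, 258, 257 and 259 TPM after siZIP10, and 188, 179 and 184 TPM after both. Single treatments moved it by -0.14 and -0.12, and both moved it by -0.61 (SE 0.029, limma adjusted p = 1.42e-08). Psmd7, Psmd11, Psmd12 and Psmd13 fell by 0.42, 0.44, 0.42 and 0.56 with both and were also called lower with each single treatment. Psmd13 exons overlap Sirt3 on the other strand. Psmd6 was not called with DTPA (-0.061, limma adjusted p = 0.319).

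The immune and thymus beta genes were nearly silent apart from Psmb10. Psmb8, Psmb11 and the germline alpha gene Psma8 had 0 reads in all 11 libraries, where 3 reads would have given 0.106 to 0.143, 0.0751 to 0.101 and 0.144 to 0.193 TPM. Psmb9 had 1 to 11 reads per library, at 0.395, 0.314 and 0.264 TPM in siControl, 0.223 and 0.0359 TPM with DTPA alone, 0.214, 0.161 and 0.116 TPM with siZIP10 alone, and 0.184, 0.0985 and 0.236 TPM with both, and was under the filter. Its exons overlap Tap1 on the other strand, so these few reads cannot be assigned. Psmb10, which replaces Psmb7 in the immune form of the core (chr8:105935735-105938444), was at 15.8, 16.3 and 16.8 TPM in the siControl libraries, 14.3 and 15.4 TPM after DTPA, 19.2, 17.1 and 20.2 TPM after siZIP10, and 25, 23.8 and 23.8 TPM after both. All 3 double-treated libraries lay above every other library, and the DTPA libraries lay below the controls.

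Psmb10 was the 1 gene called higher with both treatments, at a log2 change of 0.54 (SE 0.061, limma adjusted p = 1.46e-05), or 148% of control. With DTPA alone it was at -0.13 (limma adjusted p = 0.2, not called) and with siZIP10 alone at 0.19 (limma adjusted p = 0.0336). The siZIP10 call was lost without siControl replicate 1 or 2 or siZIP10 replicate 1 or 3 (0.15 to 0.19, limma adjusted p 0.0788 to 0.116). Its TPM as a percentage of that of Psmb7 was 10.7 ± 0.65% in siControl (SD, n = 3), 11.0 ± 0.31% with DTPA (SD, n = 2), 13.7 ± 0.74% with siZIP10 (SD, n = 3) and 26.5 ± 0.95% with both (SD, n = 3). The ratio with both thus combined a rise of Psmb10 and a fall of Psmb7, and Psmb7 remained the more abundant of the pair in every library. Psmb9 was at 0.0183 to 0.188% of Psmb6 over all libraries. Mast cell, myeloid and lymphoid marker sums, given above, were also higher in the double-treated libraries, and their part in the value of Psmb10 was not tested.

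The activators and the inhibitor split under single treatment and fell together under both. With both treatments all 6 genes fell, with DTPA 3 did, and with siZIP10 2 fell and 1 rose. Psme1 and Psme2 encode the subunits of PA28, an interferon-inducible cap that opens the core without ATP. Psme1 was at 155, 148 and 157 TPM in siControl, 149 and 157 TPM with DTPA alone, 162, 156 and 158 TPM with siZIP10 alone, and 105, 105 and 111 TPM with both. The 3 groups without the double treatment overlapped, with log2 changes of -0.0037 and 0.049 (limma adjusted p = 0.953 and 0.313), and the double-treated libraries stood clear below them at -0.52 (SE 0.033, limma adjusted p = 1.66e-07). Its exons overlap Emc9 on the other strand. Psme2 was at 114, 119 and 122 TPM in the siControl libraries, 104 and 100.1 TPM after DTPA, 117, 119 and 116 TPM after siZIP10, and 83.4, 81.2 and 80.2 TPM after both. It fell with DTPA (-0.21, limma adjusted p = 0.00133), overlapped the controls with siZIP10 (-0.0093) and fell with both (-0.53).

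Psme2b, a retrogene copy of Psme2, was at 56.1, 54.4 and 62 TPM in siControl, 49.5 and 62.6 TPM with DTPA alone, 61.8, 56.2 and 57.5 TPM with siZIP10 alone, and 37.9, 35.2 and 37.9 TPM with both. Only its double-treated libraries lay clear of the controls (-0.62, limma adjusted p = 4.79e-05). Reads may be split between these near-identical copies, and Psme2b overlaps 9930111J21Rik1 on the same strand, so both values are uncertain. Psme3, the nuclear PA28 form, was at 171, 183 and 179 TPM in the siControl libraries, 157 and 145 TPM after DTPA, 159.5, 156 and 155 TPM after siZIP10, and 111, 107 and 104 TPM after both. It had the largest fall of this class with both, at -0.72 (SE 0.037, limma adjusted p = 2.75e-08). Psmf1, an inhibitor of the core, was at 112, 113 and 115 TPM in siControl, 97.4 and 96.9 TPM with DTPA alone, 106, 106 and 106 TPM with siZIP10 alone, and 75.3, 73 and 76.5 TPM with both. No groups overlapped, and the log2 change was -0.23 with DTPA, -0.10 with siZIP10 and -0.60 with both (limma adjusted p = 4.55e-09). The siZIP10 call was lost after quantile normalization (-0.056, limma adjusted p = 0.0675).

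Psme4, the nuclear activator PA200 and the class's gene of highest mean TPM, was at 303, 288 and 305 TPM in siControl, 321 and 313 TPM with DTPA alone, 332, 327 and 355 TPM with siZIP10 alone, and 281, 264 and 273 TPM with both. The order differed from that of the core genes: siZIP10 highest, then DTPA, then siControl, then both, with no overlap. It rose with siZIP10 at 0.18 (SE 0.037, limma adjusted p = 0.00492) and was at 0.087 with DTPA (limma adjusted p = 0.148, not called). The small fall with both (-0.13, limma adjusted p = 0.00954) depended on the scaling. It was -0.056 (limma adjusted p = 0.0886) with median-of-ratios scaling and 0.047 (limma adjusted p = 0.196), with the opposite sign, after quantile normalization.

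Assembly factors gave mixed values. With both treatments 4 of 7 fell, and Psmg2, Psmg3 and Psmg4 were not called. The base chaperone Psmd9 (chr5:123169413-123250131) was at 54.5, 56.8 and 57.2 TPM in siControl, 43.9 and 41.2 TPM with DTPA alone, 49.1, 46.2 and 46.2 TPM with siZIP10 alone, and 30.2, 29.6 and 30.3 TPM with both. On the log2(TPM + 1) scale only Psmc5 of the 46 genes fell further with both. As a percentage of control Psmd9 was at 53.46% and Psmc5 at 53.53%. The groups of Psmd9 did not overlap. Its log2 changes were -0.39 with DTPA, the largest of the 46 genes there, -0.25 with siZIP10 and -0.88 (SE 0.037, limma adjusted p = 5.52e-09) with both. Psmd9 exons overlap Gm26745 on the other strand. Psmd10, the base chaperone gankyrin, was at 104, 109 and 104 TPM in the siControl libraries, 90.7 and 98 TPM after DTPA, 104, 97.2 and 106 TPM after siZIP10, and 73.4, 69.1 and 77.9 TPM after both. Its fall with both was -0.52 (SE 0.05, limma adjusted p = 3.84e-06), the siZIP10 libraries overlapped the controls, and its DTPA call (-0.17, limma adjusted p = 0.0466) was lost without any of 7 single libraries: siControl replicate 1, 2 or 3, siControl with DTPA replicate 1, siZIP10 replicate 1 or 3, or siZIP10 with DTPA replicate 1 (-0.18 to -0.11, limma adjusted p 0.0528 to 0.301). The DTPA call of Psmd10 was also lost after median-of-ratios scaling and after quantile normalization. The third base chaperone gene, Psmd5, fell in all 3 comparisons (-0.23, -0.20 and -0.33).

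The chaperones of the alpha ring, which act in pairs as Psmg1 with Psmg2 and Psmg3 with Psmg4, gave unlike values. Psmg3, whose exons overlap Gm26938 on the same strand, was at 22.6, 21.7 and 26.4 TPM in siControl, 22.2 and 21.3 TPM with DTPA alone, 19.9, 17.3 and 18 TPM with siZIP10 alone, and 22.3, 23 and 22.5 TPM with both. The siZIP10 libraries lay below those of every other group, and the double-treated libraries overlapped the controls. Its log2 change was -0.34 (SE 0.072, limma adjusted p = 0.00518) with siZIP10 and -0.053 with both (limma adjusted p = 0.539, not called). Psmg1 fell with both, at -0.60 (SE 0.12, limma adjusted p = 0.000942), while its partner Psmg2 was at 0.0092 (limma adjusted p = 0.882). Psmg4, the partner of Psmg3, at 0.34 with an SE of 0.20, had as few as 40 reads in a library, and was not called (limma adjusted p = 0.163).

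Psmc3ip was at 20.6, 25.1 and 22.6 TPM in siControl, 19.1 and 18.7 TPM with DTPA alone, 13.5, 16.3 and 12.7 TPM with siZIP10 alone, and 14.6, 14.1 and 15.6 TPM with both. It fell with siZIP10, at -0.65 (SE 0.091, limma adjusted p = 0.00042), and with both, at -0.59 (SE 0.091, limma adjusted p = 0.000172), and its siZIP10 and double-treated libraries overlapped, a pattern that none of the 31 constitutive genes showed apart from Psmb5. Its exons overlap Mlx on the other strand.

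DTPA was then compared within the knockdown, and the knockdown within DTPA. With siZIP10 present, DTPA was accompanied by a fall of 40 genes and a rise of 3 (Psmb10, Psmg2 and Psmg3), beside 37.3% and 23.1% of all genes (60.4% in either direction, with 38.2% of calls higher as deposited and 49.4% by voom). With DTPA present, the knockdown was accompanied by a fall of 41 and a rise of 1 (Psmb10), beside 31.7% and 21.3% (53.1% in either direction). The interaction tests whether the DTPA effect differs between siControl and siZIP10 cells. It was negative in 32 genes and positive in 2 (Psmb10 and Psmg3), beside 20.4% and 12% of all genes (32.4% in either direction). A negative value means a lower log2 change with DTPA in siZIP10 cells than in siControl cells. It was not always a larger fall, since Psmd4 and Psme4 had no fall with DTPA in siControl cells (0.037 and 0.087, not called). The median interaction over the 46 genes was -0.24, beside -0.024 for all genes tested.

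By class, the interaction was called negative in 7 of 7 alpha ring genes, 5 of 7 beta ring genes, 7 of 9 base genes, 5 of 8 lid genes, 6 of 6 activator and inhibitor genes and 2 of 7 assembly factors. The 5 largest were in Psme2b at -0.60 (SE 0.12, limma adjusted p = 0.00326), Psme1 at -0.56 (SE 0.05, limma adjusted p = 1.42e-05), Psmb10 at 0.47 (SE 0.091, limma adjusted p = 0.00251), Psmd1 at -0.47 (SE 0.049, limma adjusted p = 4.79e-05) and Psma5 at -0.46 (SE 0.055, limma adjusted p = 0.000121). Genes whose single treatments gave falls as large as their neighbours could still add up without an interaction. Psmc1 was at -0.043 and Psmc6 at 0.037 (limma adjusted p = 0.53 and 0.619), so that their falls with both were near the sum of the single ones on the log2 scale. The catalytic gene Psmb5 was at -0.037 (limma adjusted p = 0.775) and Psmd14 at -0.13 (limma adjusted p = 0.247), whereas Psmb6 and Psmb7 were called at -0.36 and -0.41. The mean with both treatments was below the mean of each other group in 41 of 46 genes, the exceptions being Psmb10, Psmg2, Psmg3, Psmg4 and Psmc3ip.

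**Figure D4:**
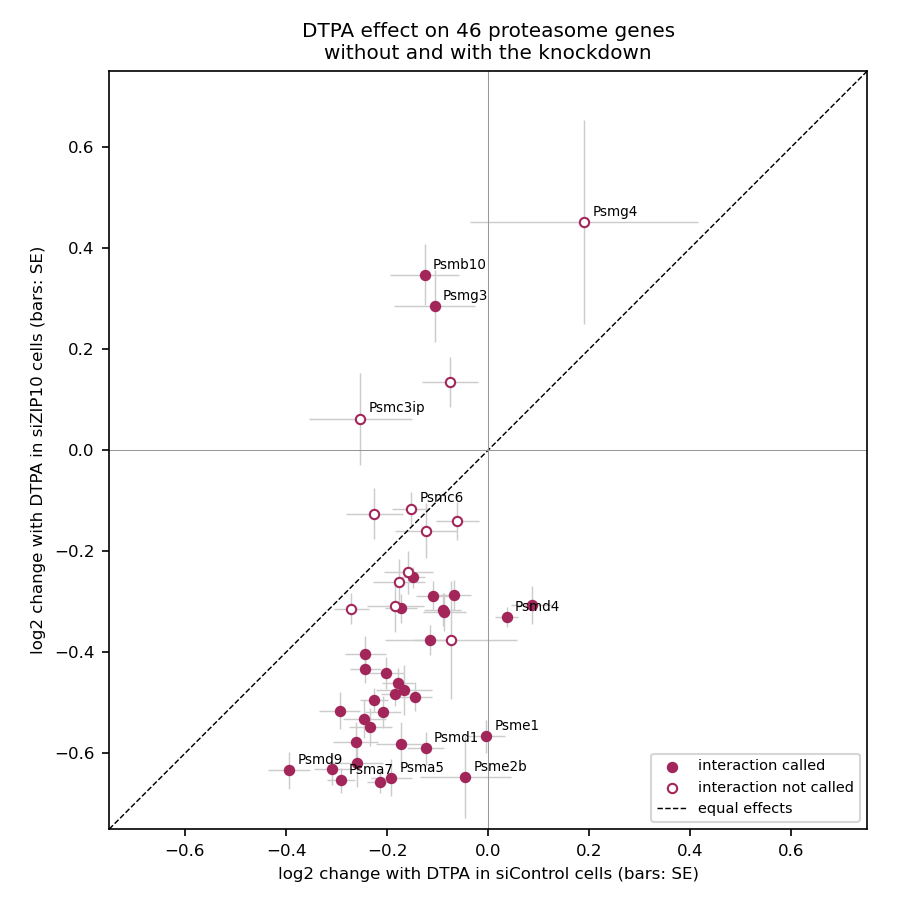
Log2 change with DTPA in siControl cells (x axis) against that in siZIP10 cells (y axis) for the 46 tested genes on the log2(TPM + 1) scale, with bars for the standard error and a dashed line of equal effects, filled where the limma adjusted p of the interaction was under 0.05. Most filled points lie below the line, and Psmb10 and Psmg3 are the 2 filled points above it.

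The 2 single treatments were also set against each other. Between siZIP10 and siControl with DTPA, 7 genes were higher with siZIP10 and 1 lower, beside 12.4% and 8.41% of all genes (20.8% in either direction), so the share was not above the background. The 7 were Psma2 (0.15), Psma7 (0.088), Psmc2 (0.21), Psmb10 (0.32), Psme2 (0.20), Psmf1 (0.12) and Psmd9 (0.15), and the 1 was Psmc3ip (-0.40). This count depended on single libraries: it was 3 without either siControl with DTPA library, and 5 without siZIP10 replicate 1 or replicate 3. With median-of-ratios scaling 5 were higher and 3 lower.

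Genes that work with the proteasome, from a list of 33 of which 32 were tested and Paaf1 was not analysed here, moved in both directions. With DTPA 8 fell and 0 rose (3 were higher at an unadjusted p under 0.05 and 5 by voom), beside 18.8% and 9.98% of all genes. With siZIP10 9 fell and 5 rose, beside 17.5% and 13.1%. With both 21 fell and 6 rose (20 and 11 after quantile normalization), beside 39.9% and 26.7%. Their median log2 change was -0.075, -0.039 and -0.29 in that order. Rad23b, which shuttles ubiquitinated proteins to the proteasome, was at 66 ± 2.47 TPM in siControl, 53.8 ± 0.159 TPM with DTPA, 61.6 ± 1.05 TPM with siZIP10 and 38.3 ± 1.8 TPM with both (SD, n = 3, 2, 3 and 3, as for the other genes of this list), with a change of -0.77 (SE 0.04, limma adjusted p = 2.66e-08) with both. Sem1, a small lid subunit outside the naming rule, was at 134 ± 10.1 TPM in siControl, 109 ± 0.295 TPM with DTPA, 104 ± 4.88 TPM with siZIP10 and 66.3 ± 2.58 TPM with both, and fell by 1.01 with both (limma adjusted p = 3.36e-08).

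The base-bound deubiquitinase Uchl5 fell in the 3 comparisons, by 0.22, 0.27 and 0.68. The ubiquitin receptor Adrm1 was at 104 ± 2.75 TPM in siControl, 100.1 ± 1.24 TPM with DTPA, 91.2 ± 1.2 TPM with siZIP10 and 87.7 ± 1.74 TPM with both, and its fall with both (-0.24) was smaller than that of each of the 31 constitutive genes. Pomp, the maturation factor of the core, fell by 0.24 with siZIP10 and 0.60 with both. Nfe2l1, the factor that raises transcription of proteasome genes, was at 59.1 ± 1.89 TPM in siControl, 55.2 ± 0.394 TPM with DTPA, 61 ± 0.353 TPM with siZIP10 and 63.1 ± 2.56 TPM with both. It rose slightly with both (0.092, limma adjusted p = 0.0369), as did Ddi2, the protease that activates it (0.31, limma adjusted p = 0.000159). Nfe2l2, a related factor, was at 140.5 ± 1.42 TPM in siControl, 143 ± 0.54 TPM with DTPA, 143 ± 3.27 TPM with siZIP10 and 146 ± 5.31 TPM with both, and its change with both was 0.053 (limma adjusted p = 0.14, not called, but 0.15 and called by voom).

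Rps27a, which encodes ubiquitin fused to a ribosomal protein, rose by 0.35 with both (limma adjusted p = 0.000116). It has near-identical copies in the genome, so its value is uncertain. Zfand5, a stimulator of the proteasome, was at 65.4 ± 1.92 TPM in siControl, 61.2 ± 0.772 TPM with DTPA, 79.2 ± 1.64 TPM with siZIP10 and 52.5 ± 3.34 TPM with both, that is higher with siZIP10 (0.27) and lower with both (-0.31). Fbxo7, which binds the inhibitor Psmf1, rose with siZIP10 (0.22, limma adjusted p = 0.00403) and was at 0.0078 with both (limma adjusted p = 0.891, not called).

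**Figure D5:**
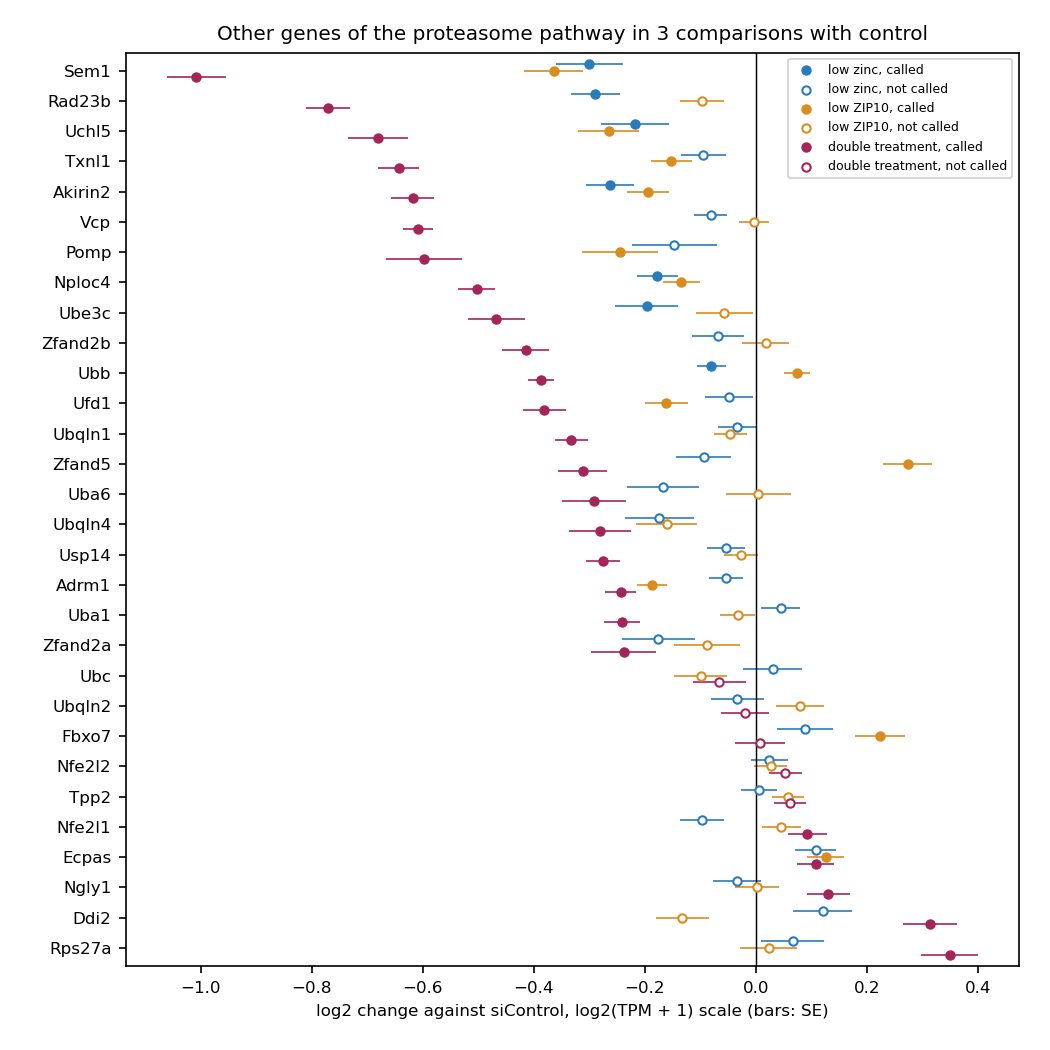
Log2 change against siControl on the log2(TPM + 1) scale (x axis) for 30 genes that work with the proteasome (y axis) with DTPA alone, siZIP10 alone and both, as points with bars for the standard error, filled where the limma adjusted p was under 0.05. With both treatments Sem1 and Rad23b lie farthest left of those plotted, and Rps27a and Ddi2 farthest right.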

How the data were processed

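RNA was sequenced from 12 libraries of G1E-ER4 cells prepared with a stranded mRNA kit, per the labels' protocols. The deposited values are TPM, scaled by the authors to a total of 1000000 per library. The submitters' processing notes name HISAT2 2.1.0, featureCounts, Trimmomatic 0.33, edgeR, FastQC and build mm10. For the annotation, the strand setting and the order of steps, nothing is given in the sources used here.

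Of the 12 libraries, 11 were used, since siControl with DTPA replicate 3 repeats siZIP10 replicate 1. The next most alike pair had 0.0121% equal values among genes above 0. Gene positions and exon lengths came from GENCODE mouse release 21. TPM multiplied by exon length gave whole reads within 0.1 read for 98.96 to 99.22% of values of up to 20 reads. The recovered depth was 19.7 to 24.7 M reads per library, with a median over tested members of 2477 mean reads, and floors of 3 reads cover counting error only. Labels call the replicates biological without naming separate cultures, so p-values measure the spread between these libraries.

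The main fit was limma 3.58.1 in R 4.3.3 on log2(TPM + 1), with a trend on mean expression, 4 group means, 7 residual degrees of freedom and two-sided p adjusted by Benjamini-Hochberg over 11379 genes (mean TPM at least 1), in each of 7 comparisons, with a threshold of 0.05. The pseudocount understates changes of low genes. Sums, ratios and motif shares are descriptions with no test. Each test had 22 alternatives, 11 of them leaving out 1 library.

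Genes given with all values were the 8 largest called changes in each of the 3 comparisons with siControl, the 5 largest called interactions, the catalytic genes, Psmd14, the activators and inhibitor, and the gene of highest mean TPM in each class; of the other pathway genes, the 3 largest called changes in each direction plus Nfe2l1, Nfe2l2, Adrm1 and Pomp. Some genes of the lists are not reported here. The members and the lists were chosen with earlier results of these data known.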

Additional observations from a re-analysis of the deposited data

Results flagged for a closer look

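The effect of DTPA differed between siControl and siZIP10 cells in 34 of 46 proteasome genes, by the interaction term of limma at an adjusted p under 0.05, where 32.4% of all 11379 genes did. Values are differences of log2 changes, DTPA effect in siZIP10 cells minus that in siControl cells. Among alpha ring genes it was -0.46 in Psma5, -0.36 in Psma7, -0.32 in Psma2, -0.19 in Psma4 and -0.16 in Psma1. Of the beta ring, Psmb7 was at -0.41, Psmb6 at -0.36 and Psmb4 at -0.30. In the base, Psmd1 was at -0.47, Psmc3 at -0.44, Psmd4 at -0.37, Psmc5 at -0.32 and Psmc4 at -0.22. In the lid, Psmd8 was at -0.34 and Psmd3 at -0.29. The activators and the inhibitor were at -0.60 in Psme2b, -0.56 in Psme1, -0.39 in Psme4, -0.32 in Psme3, -0.31 in Psme2 and -0.27 in Psmf1. Of the assembly factors, Psmd10 was at -0.31, Psmd9 at -0.24 and Psmg3 at 0.39. Psmb10 was at 0.47.

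Some of these calls rested on 1 library. Without siControl with DTPA replicate 1, Psmc4 was at -0.16 (limma adjusted p = 0.0549). Without siControl with DTPA replicate 2, Psmd10 was at -0.25 (limma adjusted p = 0.0527) and Psmg3 at 0.36 (limma adjusted p = 0.0705). Psma1 lost its call without any 1 of 9 libraries, the 2 exceptions being siControl replicate 1 and siZIP10 with DTPA replicate 3 (-0.17 to -0.14, limma adjusted p 0.0552 to 0.123). Groups of 2 or 3 libraries are too small to look for outlying libraries by this rule.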

How the results depend on the processing

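Of 99 called values of named genes, 79 kept their direction and call in each of the 22 alternatives. The other 20 each lost the call in at least 1, and 1 value reversed: Psme4 with both treatments was at 0.047 after quantile normalization. Psma1's interaction (lost in 16) and the fall of Psmd10 with DTPA (lost in 15) were the least stable. Quantile normalization also removed the calls of Psmb7 with DTPA, of Psmb5 with siZIP10, and of the Psma4 and Psmc4 interactions. Counts of called genes without any 1 library ranged from 22 to 32 with DTPA, 29 to 36 with siZIP10, 43 to 43 with both, 40 to 44 for DTPA within the knockdown, 39 to 43 for the knockdown within DTPA, 28 to 34 for the interaction and 3 to 9 for siZIP10 against DTPA. That last count was 4 with only the groups compared and 0 with siControl with DTPA replicate 3 as labelled, a fit in which the same values stand in both groups by construction. Same-numbered libraries did not deviate together over all genes tested (r from -0.0602 to 0.0607 over 15 pairs), and the main fit used no pairing. An effect shared by number in only some genes could be missed by such r values. With a replicate block the counts were 30 with DTPA, 34 with siZIP10, 43 with both, 44 for DTPA within the knockdown, 42 for the knockdown within DTPA, 34 for the interaction and 6 for siZIP10 against DTPA.

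The summed TPM of the constitutive genes, as a percentage of control, was 91.5% with DTPA and 71.3% with both after median-of-ratios scaling, 89.5% and 69.3% after rescaling without mitochondrial genes, and 88.7 to 89.9% with DTPA, 89.8 to 91.2% with siZIP10 and 67.3 to 68.4% with both when 1 library was left out. The share of higher calls over all genes was also 46.8% with DTPA under median-of-ratios scaling and 47.4% by voom. The members were lower in 25 and higher in 2 with DTPA under median-of-ratios scaling, and lower in 41 and higher in 1 with both. The cause of these shifts was not tested. Low genes are limited by depth, and changes of genes near 1 TPM are understated.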

Other observations

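Genes of antigen processing and interferon signalling, the setting in which the immune proteasome is known to act, rose more often than they fell against siControl. Of a list of 17, 12 were tested. With DTPA 3 rose and 1 fell, beside 9.98% and 18.8% of all genes. With siZIP10 7 rose and 0 fell (0 at an unadjusted p under 0.05 and 0 by voom), beside 13.1% and 17.5%. With both 8 rose and 2 fell, beside 26.7% and 39.9%. The list's median log2 change was 0.079, 0.30 and 0.33 in that order. For DTPA within the knockdown 4 rose and 4 fell, beside 23.1% and 37.3% of all genes. For the knockdown within DTPA 6 rose and 1 fell, beside 21.3% and 31.7%. The interaction was positive in 2 and negative in 3, beside 12% and 20.4%. H2-D1, a class I molecule that presents peptides, was at 157 ± 4.6 TPM in siControl, 224 ± 2.6 TPM with DTPA, 200.3 ± 4.5 TPM with siZIP10 and 356 ± 10.4 TPM with both (SD, n = 3, 2, 3 and 3). It rose in each comparison with siControl, by 0.52, 0.35 and 1.18 (SE 0.03, limma adjusted p = 1.5e-10). B2m, its light chain, was at 2414 ± 91.7 TPM in siControl, 2385 ± 12.8 TPM with DTPA, 3350 ± 76.5 TPM with siZIP10 and 2744 ± 43.7 TPM with both, with its highest level under siZIP10 alone. Tapbp, which helps to load peptides, rose by 0.19, 0.31 and 0.49 in the same order, and Erap1, which trims them, rose by 0.28 with siZIP10 and 0.86 with both. Of the interferon genes, Irf1 rose by 0.42 with siZIP10 and 0.45 with both, Bst2 by 0.67 and 0.56, while Irf7 and Stat2 fell by 0.35 and 0.22 with both. Tap1, Nlrc5, H2-K1, Ifit1 and Ifit3 were under the filter.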
